A study of Mus musculus with 4 samples.

Results

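The Id family consists of the 4 mouse genes Id1, Id2, Id3 and Id4, which were found by their symbols among the 32285 genes of the count matrices, each on 1 row. They were followed in single ovarian cells of prepubertal mice under 4 treatments, with 1 library per treatment. The control animals received PBS or saline, the doxorubicin animals 3 mg/kg of that drug, the doxorubicin+AMH animals the same dose with 0.75 mg/kg of recombinant human anti-Müllerian hormone (AMH), and the AMH animals 0.75 mg/kg of the hormone alone. Doxorubicin is an anthracycline that damages DNA, and the series title asks whether AMH protects the ovary from it. Treatment began at postnatal day 25, doxorubicin was given in 2 weekly doses, and ovaries were taken 4 h after the second dose. Each library pools 1 ovary of each of 5 animals. Differences between animals therefore cannot be seen, and every difference given here is one between 2 libraries, with no test between treatments. Strain and route of dosing are not given in the sources used here.

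Id proteins are helix-loop-helix proteins without a DNA-binding region. They pair with E proteins such as those encoded by Tcf3, Tcf4 and Tcf12 and keep them off DNA, and they are known for holding cells in an undifferentiated or proliferating state. Id1, Id2 and Id3 are classical early targets of bone morphogenetic proteins (BMPs), whose receptors act through the SMAD1, SMAD5 and SMAD8 proteins. AMH belongs to the same ligand family: it binds its own type 2 receptor, encoded by Amhr2, and then uses BMP type 1 receptors and the same SMADs, and in the ovary it is made by granulosa cells of growing follicles.

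In GRCm38, Id1 lies on chromosome 2 from 152736251 to 152737410 on the plus strand, Id2 on chromosome 12 from 25093799 to 25097140 on the minus strand, Id3 on chromosome 4 from 136143497 to 136145755 on the plus strand, and Id4 on chromosome 13 from 48261228 to 48266026 on the plus strand. No annotated gene overlaps Id1, Id2 or Id3 on either strand in the GENCODE annotation. Id4 overlaps the antisense genes A330033J07Rik and Gm49291, which are also counted in the files. Because Id1, Id2 and Id3 were higher together in several cell groups described below, the 250 bases before the RefSeq start site are shown for the 3 members that the promoter table holds, with every GGCGCC in capitals. GGCGCC is a GC-rich element known to be bound by BMP-responsive SMADs. The windows are given 5′ to 3′ on each gene's own strand, from RefSeq on GRCm38.p6. RefSeq and GENCODE place the starts differently, and the Id2 and Id3 windows lie inside the GENCODE spans given above. Distances are counted from the RefSeq start.
Id2, chr12:25096093-25096342, minus strand: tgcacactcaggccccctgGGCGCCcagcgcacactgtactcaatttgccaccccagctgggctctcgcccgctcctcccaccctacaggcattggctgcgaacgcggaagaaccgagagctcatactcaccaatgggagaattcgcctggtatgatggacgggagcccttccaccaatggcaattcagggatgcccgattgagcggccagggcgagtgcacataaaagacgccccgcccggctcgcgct
Id3, chr4:136143572-136143821, plus strand: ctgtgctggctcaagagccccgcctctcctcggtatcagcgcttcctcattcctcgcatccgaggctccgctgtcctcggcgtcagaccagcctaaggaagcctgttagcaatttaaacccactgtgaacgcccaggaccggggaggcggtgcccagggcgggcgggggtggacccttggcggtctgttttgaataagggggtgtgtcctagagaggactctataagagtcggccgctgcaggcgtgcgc
Id4, chr13:48260866-48261115, plus strand: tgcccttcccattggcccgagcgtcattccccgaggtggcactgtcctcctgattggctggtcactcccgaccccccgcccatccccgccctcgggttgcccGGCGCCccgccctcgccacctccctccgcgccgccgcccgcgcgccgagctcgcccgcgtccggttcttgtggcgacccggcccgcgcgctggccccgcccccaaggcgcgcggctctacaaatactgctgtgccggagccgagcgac
The 250 bases of Id2 held 1 GGCGCC, which begins 231 bases before the start site, and those of Id4 held 1, which begins 148 bases before it. Id3 held none in this window. GGCGCC reads the same on both strands and was present in 9.59% of all 32851 promoter windows of this length. The short SMAD element AGAC, or GTCT on the other strand, was present once for Id2, at 23 bases before the start, and 2 times for Id3, the first at 166 bases before it, and was absent from the window of Id4; 82.9% of all windows held it, so its presence is common. The G and C share of the window was 62.8% for Id2, 62.8% for Id3 and 75.6% for Id4, against a median of 52.4% over all windows.

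The deposited cells numbered 9202 (control), 7141 (doxorubicin), 7818 (doxorubicin+AMH) and 9478 (AMH), with medians from 9834.5 to 13575 UMIs per cell. A UMI (unique molecular identifier) counts 1 captured transcript. Pairs of libraries shared 11 to 24 cell barcodes, at most 0.281% of the smaller library. After filtering, 28440 cells remained in 32 clusters that were made without the Id genes, and 31 clusters were named from marker genes in 11 classes, each written with "-like". Cluster 26, led by B230209E15Rik, stayed unnamed, and 181 of its 186 cells were from doxorubicin. Of the granulosa-like clusters, 1 held 125 of 128 cells from AMH and another 78 of 79 cells from doxorubicin. Levels are UMIs of a gene per 1000000 UMIs summed over the cells of a class in a library (CPM), and intervals are exact 95% intervals that cover counting error only. A run of 4 values stands for control first, then doxorubicin, then doxorubicin+AMH, and AMH last.

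Over all kept cells, Id3 was at 464, 447, 509 and 457 CPM, Id1 at 174, 154, 176 and 175 CPM, Id2 at 186, 169, 246 and 284 CPM, and Id4 at 18.9, 13.0, 16.2 and 20.9 CPM. At this level Id2 differed most between libraries with and without AMH, by 1.53-fold in AMH against control and by 1.46-fold in doxorubicin+AMH against doxorubicin. The whole-tissue sums of Id1 and Id3 differed little between AMH and control, while the separate classes differed in opposite directions, as described below.

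The classes differed widely in each member. By the median over libraries, Id1 was highest in blood endothelial-like cells, the lining of blood vessels, at 655, 524, 518 and 259.8 CPM. Lymphatic endothelial-like cells followed at 342, 297, 218 and 379 CPM, and the 2 ranges overlapped. Granulosa-like cells, which surround the oocyte in follicles, held a narrow range of 208, 191, 217 and 217 CPM, and this range lay wholly above those of mural smooth muscle-like and stroma-like cells.

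By the same median, Id2 was highest in mural smooth muscle-like cells, the contractile cells of vessels and stroma. They were at 471, 466, 399 and 358 CPM, above every library of the next class. Surface epithelial-like cells, ranked lower, reached 521 CPM in doxorubicin+AMH. T or NK lymphocyte-like cells came next at 231, 246, 276 and 297 CPM. Id2 is known as a regulator of innate lymphoid and NK cell development. Id2 was the predominant member in macrophage-like cells by UMI count, with 63.6% to 77.7% of their Id UMIs.

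Again by the median, Id3 was highest in blood endothelial-like cells at 907, 910.0, 966 and 655 CPM. Stroma-like cells followed at 865, 657, 650.3 and 586 CPM, and these ranges overlapped. Surface epithelial-like cells, ranked lower, reached 1107 CPM in doxorubicin+AMH. Id3 gave 67.9% to 71.8% of the Id UMIs of stroma-like cells, the connective tissue between follicles. Theca-like cells, the steroid-producing layer around follicles, spanned the widest range of the 6 larger classes for Id3, as set out below.

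By the median, Id4 was highest in mural smooth muscle-like cells at 104, 56.1, 66.1 and 78.6 CPM, with every library above those of the next class. Surface epithelial-like cells, ranked lower, reached 56.6 CPM in AMH. It was at or under 4.38 CPM in all libraries of theca-like cells, and granulosa-like cells held 6.96, 6.93, 10.8 and 14.3 CPM. Within the muscle-like class it was concentrated in the cluster led by Des, Actg2 and Myh11, at 236, 134, 330 and 155 CPM, although that cluster held only 18 doxorubicin cells.

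Erythroid-like cells, red blood cell precursors that should hold little Id RNA, served as the background of free RNA in the droplets. They gave Id1 at 17.5, 40.6, 38.0 and 59.6 CPM, Id2 at 14.0, 13.5, 20.5 and 65.6 CPM, and Id3 at 34.9, 65.0, 52.6 and 83.5 CPM. These rest on 4 to 24 UMIs each, and the AMH library had the highest value for each of the 3 genes. Id2 in AMH / control was thus itself higher in this background, on 11 and 4 UMIs. Id4 had no UMI in these cells, where 3 UMIs, the floor used for ratios, would be 17.9 CPM in AMH and 8.13 CPM in doxorubicin. Id1 and Id3 in macrophage-like cells, at 17.2 to 39.3 and 54.7 to 87.6 CPM, overlapped this background and are not read as expression there.

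**Figure D1:**
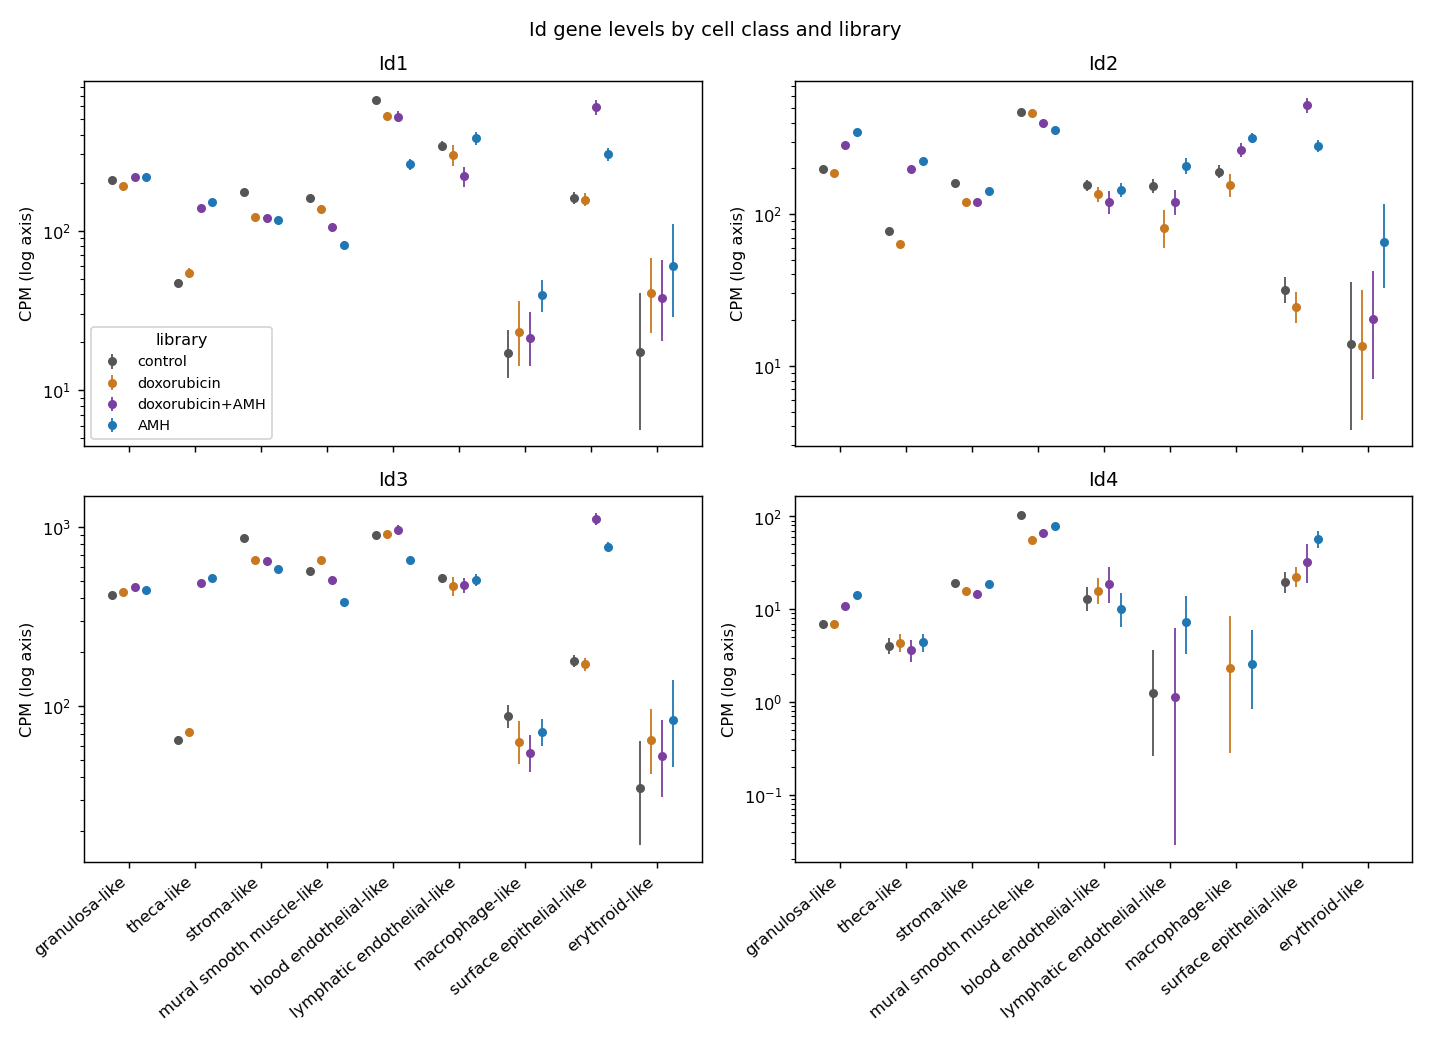
Levels of Id1 to Id4 in CPM on log axes, for 9 cell classes along the horizontal axis. Each point is 1 library, bars are exact 95% Poisson intervals for counting error, and levels of 0 are not drawn; in theca-like cells the 2 AMH libraries sit above the 2 libraries without AMH for Id1, Id2 and Id3.

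The first comparison asked how far the Id genes differed between libraries with and without AMH. Of the 24 pairs of an Id gene and 1 of 6 classes that each library filled with 50 or more cells, 19 had a mean of at least 20 CPM. Of these, 4 were at least 2-fold higher and 1 at least 2-fold lower in AMH than in control, and 3 were at least 2-fold higher and none lower in doxorubicin+AMH than in doxorubicin. Over all genes and the same classes, 0.786% were at least 2-fold higher and 1.05% lower in AMH / control, and 0.974% higher and 1.39% lower in doxorubicin+AMH / doxorubicin. The 3 pairs past 2-fold in both contrasts were Id1, Id2 and Id3 in theca-like cells, as sums over that class. The 2 contrasts share no library.

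Of the 6 classes, theca-like cells gave the largest differences. Id3 was at 64.5, 71.5, 489 and 521 CPM, from 1680, 1383, 7897 and 9391 UMIs. Both libraries with AMH were far above both without it: the ratio was 8.07-fold in AMH / control, with a log2 ratio of 3.01 (2.94 to 3.09), and 6.84-fold in doxorubicin+AMH / doxorubicin, with 2.77 (2.69 to 2.86). By the ratio closer to 0, Id3 ranked 5 among the 6259 genes of this class.

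Id2 in theca-like cells was at 77.9, 63.0, 197 and 225 CPM, and its log2 ratios were 1.53 (1.45 to 1.61) and 1.64 (1.55 to 1.74). Id1 was at 47.1, 54.6, 139 and 152 CPM, with log2 ratios of 1.69 (1.59 to 1.79) and 1.35 (1.24 to 1.45). They ranked 44 and 55 among the same 6259 genes. Again neither library with AMH overlapped either library without it in these class sums, although Id1 was past 2-fold in none of the theca-like clusters taken alone, as given below. The share of all genes at least 2-fold higher in both contrasts in this class was 1.95%, which is above the other classes.

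Id4 did not share this pattern in theca-like cells. It was at 4.03, 4.34, 3.59 and 4.38 CPM, below the 20 CPM filter, and its log2 ratios of 0.12 (-0.32 to 0.55) and -0.27 (-0.78 to 0.23) had intervals that held 0. At these counts, from 58 to 105 UMIs, no difference was detectable.

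The share of theca-like cells with a UMI told the same order. Each cell was thinned, by calculation, to 2000 UMIs to remove differences in depth, since the median depth of these cells was 20390.5, 24344, 14374 and 12967 UMIs. The expected share with Id3 was then 11.8%, 12.9%, 54.6% and 56.7%, against 59.3%, 62.0%, 89.6% and 90.5% before thinning. In erythroid-like cells the thinned Id3 share was 3.12%, 10.1%, 9.58% and 13.3%. Each theca-like library was above the erythroid-like share of its own library, by the least in doxorubicin. The share with at least 1 UMI of any Id gene after thinning was 30.3%, 31.3%, 69.5% and 73.0%.

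These theca-like sums join 3 clusters that the libraries filled unequally. The cluster led by Cyp17a1, Cyp11a1 and Mgarp held 652, 412, 54 and 52 cells, the cluster led by Lhcgr, Prss35 and Dpp6 held 23, 19, 551 and 723 cells, and the cluster led by Cyp17a1, Lhcgr and Cyp11a1, with Enpep and Hhip, held 179, 156, 147 and 128 cells. The Id genes therefore have to be read within clusters as well. Theca markers summed to 14772, 14285, 5721 and 4817 CPM over the whole class, with none of the 7 markers at 0. Stroma markers summed to 432, 447, 994 and 951 CPM, blood endothelial markers to 34.9, 36.7, 51.1 and 52.6 CPM, and granulosa markers to 526, 533, 299.5 and 323 CPM in the same cells. Stroma markers thus moved with AMH here too, and their part in the Id values was not tested.

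Within the Cyp17a1, Cyp11a1 and Mgarp cluster, Id3 was at 43.7, 48.0, 212 and 202 CPM, with log2 ratios of 2.21 (2.02 to 2.40) and 2.14 (1.93 to 2.35). Id2 was at 87.5, 70.5, 119.8 and 156 CPM, with 0.84 (0.64 to 1.03) and 0.76 (0.51 to 1.01). Id1 was at 45.5, 54.0, 58.3 and 75.2 CPM, with 0.72 (0.43 to 1.01) and 0.11 (-0.26 to 0.46), levels near those of erythroid-like cells. Within this cluster Id3 stayed past 2-fold in both contrasts, and Id1 and Id2 did not. Here 0.96% of genes were at least 2-fold higher in AMH / control and 0.944% in doxorubicin+AMH / doxorubicin. Theca markers summed to 16345, 15941, 11123 and 10702 CPM and stroma markers to 174, 203, 325 and 381 CPM in this cluster, and their part was not tested.

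The cluster led by Lhcgr, Prss35 and Dpp6 carried the highest Id levels of the theca-like cells. Id3 was at 334 CPM in control from 42 UMIs, 399 CPM in doxorubicin from 81 UMIs, and 650.0 and 640.1 CPM in doxorubicin+AMH and AMH. Its AMH / control log2 ratios were 0.94 (0.50 to 1.41) for Id3, 1.52 (0.71 to 2.47) for Id2 and 0.90 (0.09 to 1.86) for Id1, on 23 control cells, where 5.06% of genes were at least 2-fold higher. With only 19 doxorubicin cells, the second ratio is not given for this cluster.

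The cluster led by Cyp17a1, Lhcgr and Cyp11a1 was evenly filled by the 4 libraries. Id2 was at 30.6, 30.1, 73.7 and 90.2 CPM, and its ratios of 1.56 (1.27 to 1.86) and 1.29 (0.98 to 1.61) were past 2-fold in both contrasts. Id3 was at 158, 150.2, 193 and 244 CPM, with the smaller ratios 0.63 (0.48 to 0.77) and 0.36 (0.21 to 0.52). Id1 was at 53.7, 51.4, 47.2 and 94.7 CPM, with 0.82 (0.58 to 1.06) and -0.12 (-0.41 to 0.17). In this cluster 0.459% of genes were at least 2-fold higher in AMH / control and 0.689% in doxorubicin+AMH / doxorubicin. Over the theca-like clusters, Id1 was past 2-fold in 0 of 3 in AMH / control, with a highest log2 ratio of 0.90, Id2 in 2 and Id3 in 1. In doxorubicin+AMH / doxorubicin, Id1 was past 2-fold in 0 of 2, and both intervals held 0, while Id2 and Id3 were past it in 1 each.

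Among granulosa-like cells, Id2 had the largest AMH ratios of the 3 members that passed the filter. It was at 197, 187, 284 and 346 CPM, with log2 ratios of 0.81 (0.78 to 0.84) and 0.60 (0.57 to 0.64), and ranked 26 among 6630 genes by the ratio closer to 0. Id1 was at 208, 191, 217 and 217 CPM, with 0.06 and 0.19, and Id3 at 419.5, 434, 461 and 447 CPM, with 0.09 and 0.09. Id4, under the filter, was at 6.96, 6.93, 10.8 and 14.3 CPM, with 1.04 (0.88 to 1.20) and 0.64 (0.46 to 0.82). The 14.3 CPM in AMH lies within the 17.9 CPM that 3 UMIs would give in the erythroid-like cells of that library. No member that passed the filter was past 2-fold as a class sum, although Id2 reached 1.00 in AMH / control with doublets left in. The share of genes past 2-fold upward in both contrasts was 0.0754% in this class. Single clusters did pass 2-fold, as given below.

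The flat sum for Id1 and Id3 hid opposite differences between follicle cell clusters. In the cluster led by Cntn4, Slc18a2 and Cdh12, which also had Wfdc10 and Amh among its leading genes, Id1, Id2 and Id3 were all higher with AMH. Id2 was at 45.1, 54.4, 218 and 269 CPM, Id3 at 219, 219, 513 and 399.8 CPM, and Id1 at 109, 93.9, 239 and 202 CPM. The log2 ratios were 2.58 (2.43 to 2.72) and 2.00 (1.84 to 2.17) for Id2, 0.87 (0.78 to 0.95) and 1.23 (1.14 to 1.32) for Id3, and 0.88 (0.77 to 1.00) and 1.35 for Id1.

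Background for this cluster was 2.16% of genes at least 2-fold higher in AMH / control and 1.73% in doxorubicin+AMH / doxorubicin. Its granulosa markers summed to 2873, 2754, 1947 and 1549 CPM. The 18 dissociation stress genes had medians of 0.03 and -0.09 on the log2 scale there, close to the medians of all genes, -0.02 and -0.04.

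The cluster led by Kcnq5, Bmpr1b and Mctp1 went the other way for 2 members. Id3 was at 726, 748, 624 and 645 CPM and Id1 at 374, 339.9, 301 and 314 CPM, both lower in each AMH library than in its partner, with log2 ratios of -0.17 and -0.26 for Id3 and -0.25 and -0.18 for Id1. Id2 was at 341, 277, 334 and 442 CPM, with 0.38 and 0.27. This cluster had the highest Id1 and Id3 of the granulosa-like clusters filled by all 4 libraries. Id2 was higher in AMH than in control in all 7 granulosa-like clusters with at least 20 cells in both libraries, with intervals above 0 and log2 ratios from 0.34 to 2.58. Id2 was past 2-fold in 3 of the 7, led by Cntn4, by Mctp1, Inhba and Inhbb (1.13) and by Uchl1 (1.45). In the last 2, 0.246% and 4.9% of genes were at least 2-fold higher. Id1 was past 2-fold in 1 of the 7, the Uchl1 cluster, at 1.05. In doxorubicin+AMH / doxorubicin the Id2 interval was above 0 in 6 of 7 clusters. In that contrast Id1, Id2 and Id3 were each past 2-fold only in the Cntn4 cluster.

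Mural smooth muscle-like cells had lower Id levels in AMH than in control for all 4 members. Id1 was at 159, 138, 105 and 81.4 CPM, with log2 ratios of -0.97 (-1.08 to -0.87) in AMH / control and -0.39 (-0.50 to -0.28) in doxorubicin+AMH / doxorubicin. Id3 was at 569, 653, 504 and 379 CPM, with -0.58 (-0.64 to -0.53) and -0.38 (-0.43 to -0.33), and Id2 had -0.40 and -0.22. Id4, at -0.40 and 0.24, differed in sign between the contrasts as a class sum. The Des cluster, where Id4 was highest, held 18 doxorubicin and 54 doxorubicin+AMH cells, and in the Acta2 and Rgs5 clusters the second ratio of Id4 was -0.07 (-0.25 to 0.11) and 0.30 (-0.49 to 1.07), both intervals holding 0. No pair passed 2-fold in this class, although Id1 in AMH / control did at Leiden resolution 2.0, at -1.04, and with each library clustered alone, at -1.005. In this class 0.213% of genes were at least 2-fold lower in AMH / control.

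Within the class, the cluster led by the smooth muscle genes Acta2, Myh11 and Actg2 had the lowest AMH / control ratios of Id1, Id2 and Id3, at -1.06, -0.48 and -0.67. There Id1 was at 186, 141, 106 and 89.3 CPM and Id3 at 664, 632, 498 and 417 CPM. In the cluster led by Rgs5, a gene typical of pericytes, Id3 was at 884, 1032, 903 and 881 CPM and its AMH / control interval of -0.16 to 0.15 held 0, while Id1 was at -0.51 (-0.88 to -0.15). In the cluster led by Des the AMH / control ratio was -0.60 (-1.01 to -0.20) for Id1 and -0.61 (-0.79 to -0.42) for Id4, against -0.24 for Id4 in the Acta2 cluster.

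Stroma-like cells showed lower Id1 and Id3 in all 3 treated libraries than in control. Id3 was at 865, 657, 650.3 and 586 CPM and Id1 at 175, 122, 120.4 and 116 CPM, so control stood alone above the others. AMH / control was -0.56 (-0.59 to -0.53) for Id3, whereas doxorubicin+AMH / doxorubicin was -0.01 (-0.04 to 0.02).

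Blood endothelial-like cells gave the 1 pair lower past 2-fold. Id1 was at 655, 524, 518 and 259.8 CPM, and AMH was lower than the 3 other libraries, at a log2 ratio of -1.33 (-1.46 to -1.21) to control, or 2.52-fold. In doxorubicin+AMH / doxorubicin the ratio was -0.02 (-0.16 to 0.12), and the 2 ratios differed by 1.32 (1.12 to 1.51), an interval for counting error only. Stroma markers in these cells summed to 213, 148, 240.4 and 585 CPM and macrophage markers to 143 CPM in AMH against 25.1 to 26.9 CPM in the others, and their part in the Id1 value was not tested. Erythroid markers summed to 6152 CPM in doxorubicin+AMH and to 16.5, 16.3 and 382 CPM in control, doxorubicin and AMH. The 4 libraries held 166, 116, 58 and 83 of these cells.

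Macrophage-like cells had Id2 at 190.0, 155, 265 and 316 CPM, with log2 ratios of 0.74 (0.55 to 0.92) and 0.78 (0.48 to 1.08), rank 27 of 6287 genes. The background in erythroid-like cells was 14.0, 13.5, 20.5 and 65.6 CPM, so Id2 was well above it in each library. The remaining pair higher past 2-fold in AMH / control was Id1 in macrophage-like cells, at 17.2 and 39.3 CPM from 35 and 76 UMIs, which is no higher than the erythroid-like background.

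**Figure D2:**
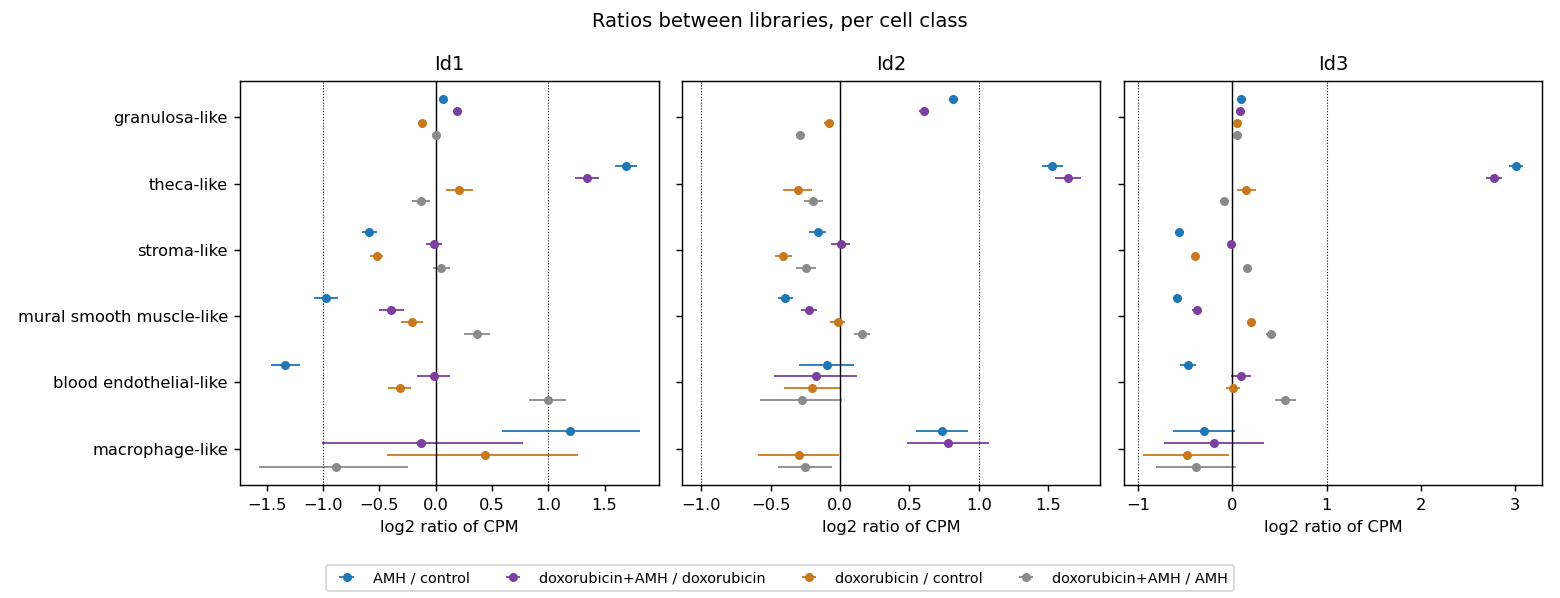
Log2 ratios of CPM for Id1, Id2 and Id3 in 6 cell classes, with exact 95% intervals for counting error; dotted lines mark 2-fold. Blue and purple points, the 2 contrasts with AMH, lie past 2-fold on the high side for all 3 genes in theca-like cells, and the contrasts with doxorubicin stay within 2-fold.

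The second comparison asked how the Id genes differed between libraries with and without doxorubicin, 4 h after its second dose. None of the 19 pairs passed 2-fold in doxorubicin / control or in doxorubicin+AMH / AMH, where 0.824% and 0.826% of all genes did in either direction. Id1 in blood endothelial-like cells was closest to it in doxorubicin+AMH / AMH, at 0.99 (0.83 to 1.16), and fell to 0.35 with a per-cell marker gate. Among the 19 pairs, the largest value in doxorubicin / control was that of Id4 in mural smooth muscle-like cells. Id4 was at 104 CPM in control and 56.1 CPM in doxorubicin there, a log2 ratio of -0.88 (-1.03 to -0.74). In doxorubicin+AMH / AMH it was -0.25 (-0.38 to -0.12). The cluster led by Des, where Id4 was highest, had 204 control and 18 doxorubicin cells. Within the Acta2 cluster the doxorubicin / control ratio of Id4 was smaller, at -0.38 (-0.55 to -0.21), and within the Rgs5 cluster it was -0.20 (-0.88 to 0.46).

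Single clusters of these classes did pass 2-fold in the doxorubicin contrasts. In the Rgs5 cluster Id2 was at 116, 53.4, 69.9 and 115 CPM, with -1.12 (-1.63 to -0.63) in doxorubicin / control from 48 and 124 UMIs, where 0.997% of genes were at least 2-fold lower. In the Des cluster Id2 was at 90.3, 97.9, 177 and 75.9 CPM and Id3 at 119.6, 97.9, 259 and 97.7 CPM. Their doxorubicin+AMH / AMH ratios were 1.23 (0.87 to 1.58) and 1.40 (1.11 to 1.70), and that of Id4 was 1.09 (0.84 to 1.34), on 54 and 179 cells, where 2.92% of genes were at least 2-fold higher. In the smaller macrophage-like cluster, led by Lyz2, C1qb and C1qa, Id1 and Id2 were lower past 2-fold in doxorubicin+AMH / AMH, on only 2 against 14 and 6 against 22 UMIs, where 7.4% of genes were.

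Stroma-like cells had lower Id1, Id2 and Id3 in doxorubicin than in control, at log2 ratios of -0.52 (-0.58 to -0.46), -0.41 (-0.47 to -0.35) and -0.40 (-0.42 to -0.37). In doxorubicin+AMH / AMH the same genes were at 0.05, -0.25 and 0.15, so only Id2 kept the sign. In theca-like cells the doxorubicin ratios of Id1, Id2 and Id3 lay between -0.31 and 0.21 as class sums, where the AMH ratios were 1.35 to 3.01. Within the evenly filled cluster led by Cyp17a1, Lhcgr and Cyp11a1, however, the 47.2 CPM of Id1 with both agents stood against 94.7 CPM with AMH alone, a log2 ratio of -1.01 (-1.26 to -0.76), past 2-fold lower beside 0.18% of its genes. This is further from 0 than both AMH ratios of Id1 in that cluster, 0.82 and -0.12. Granulosa-like cells had doxorubicin ratios between -0.29 and 0.05 for the same genes.

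Surface epithelial-like cells, the layer that covers the ovary, were too few for the main comparison, with 105, 93, 37 and 66 cells, but had the largest Id2 ratios of the classes given here. Id2 was at 31.6, 24.3, 521 and 282 CPM, from 103, 74, 292 and 453 UMIs. The ratio was 8.92-fold in AMH / control and 21.4-fold in doxorubicin+AMH / doxorubicin, with log2 ratios of 3.16 (2.85 to 3.48) and 4.42 (4.05 to 4.81). Id3 was at 179, 171, 1107 and 777 CPM, with 2.12 and 2.69, and Id1 at 159.7, 156, 595 and 301 CPM, with 0.91 and 1.93. In this class 1.7% of genes were at least 2-fold higher in AMH / control and 2.34% in doxorubicin+AMH / doxorubicin.

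Most of this difference lay in 1 of 2 surface epithelial-like clusters. In the cluster led by Lgals7, Nrg1 and Upk3b, with 66, 54, 35 and 31 cells, Id2 was at 30.5, 20.2, 555 and 514 CPM, Id3 at 176, 142, 1173 and 1229 CPM, and Id1 at 156, 171, 628 and 435 CPM. Id4 was at 11.1, 11.9, 32.9 and 43.1 CPM from 27, 23, 17 and 33 UMIs, and passed the filter there through the libraries with AMH alone. The log2 ratios of Id2 were 4.07 (3.71 to 4.45) and 4.78 (4.29 to 5.30), and those of Id3 2.80 (2.64 to 2.97) and 3.05 (2.84 to 3.26). In this cluster 2.53% of genes were at least 2-fold higher in AMH / control and 3.3% in doxorubicin+AMH / doxorubicin.

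The thinned share of cells with an Id2 UMI in that cluster was 7.67%, 3.59%, 53.4% and 56.8%. Surface epithelial markers summed to 5384, 4955, 4340 and 3620 CPM, stroma markers to 363, 356, 671 and 825 CPM, and blood endothelial markers to 276, 274, 508 and 527 CPM; the part of the last 2 in the Id values was not tested. In the other cluster, led by C3, Slpi and Upk3b, Id2 was at 34.7 CPM in control and 71.2 CPM in AMH, Id3 at 188 and 368 CPM, and Id1 at 171 and 179 CPM. Only 2 of its cells were from doxorubicin+AMH.

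**Figure D3:**
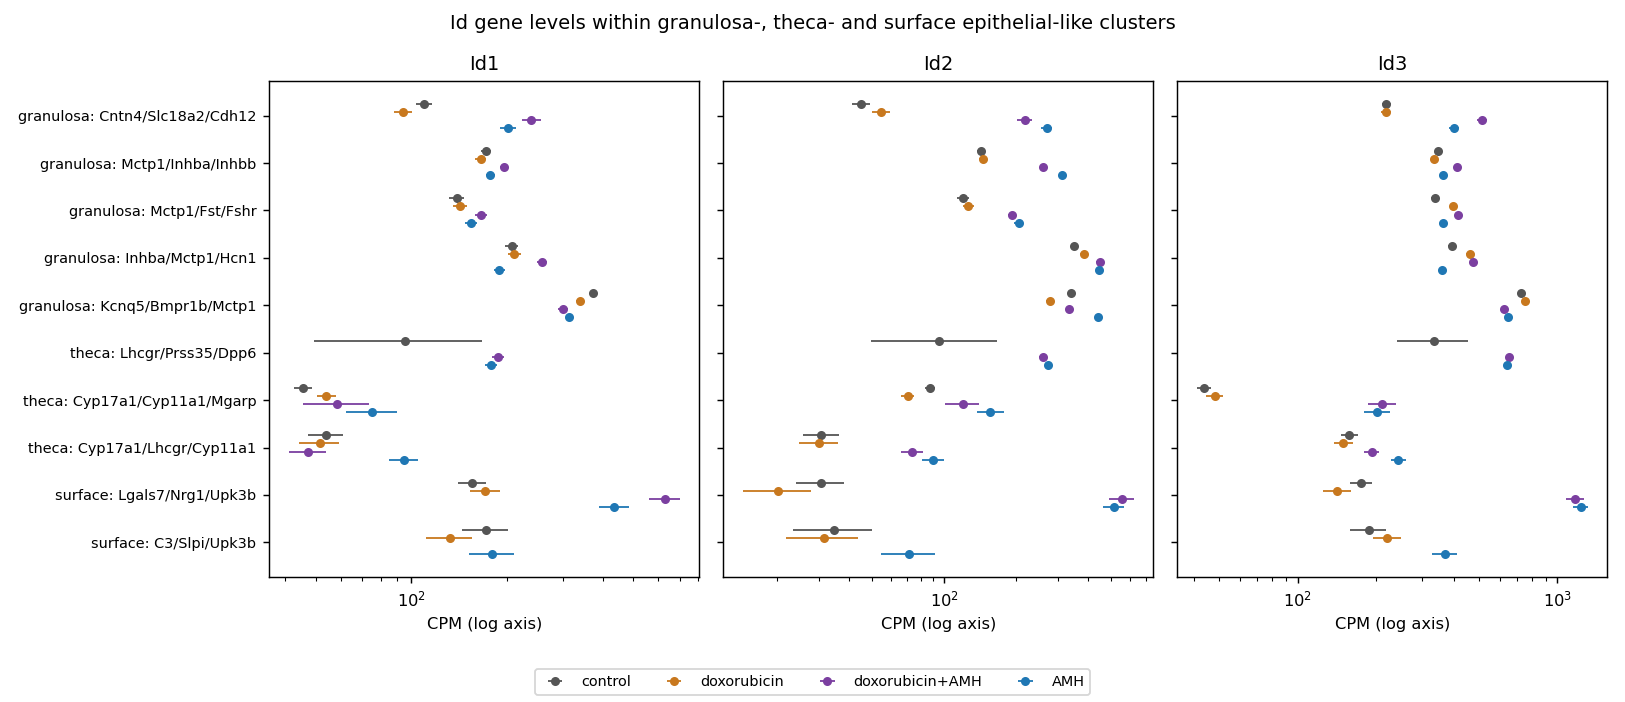
Levels of Id1, Id2 and Id3 in CPM on log axes in 10 clusters named by class and leading genes. Points are libraries with at least 20 cells in the cluster and bars are exact 95% Poisson intervals; for Id2 the widest gaps between libraries with and without AMH are in the Lgals7 and Cntn4 clusters, and for Id3 in the Lgals7 cluster and the Cyp17a1, Cyp11a1 and Mgarp cluster.

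The receptor through which AMH acts was then set beside the Id ratios. Amhr2 was at 119, 134, 94.5 and 104 CPM in granulosa-like cells. Theca-like cells had 54.9, 56.3, 64.1 and 70.1 CPM, and surface epithelial-like cells 230.2, 171, 289 and 160.5 CPM. In stroma-like, mural smooth muscle-like, blood endothelial-like and macrophage-like cells it was at 12.3 CPM or lower. In the 3 classes with the most Amhr2, Id2 was higher in both AMH libraries by at least 1.52-fold. This did not set them apart, since Id2 was 1.66- and 1.71-fold higher in macrophage-like cells, which had 3.45 to 8.36 CPM of Amhr2 from 3 to 11 UMIs.

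Among the clusters with both AMH ratios, Amhr2 was highest in the Lgals7 cluster of surface epithelial-like cells, at 305, 266, 313 and 315 CPM. The Cntn4 cluster of granulosa-like cells followed, at 231, 272, 237 and 259.8 CPM. These were also the clusters with the highest Id2 ratios. The C3 cluster of surface epithelial-like cells had 13.2, 5.38, 0 and 20.2 CPM of Amhr2. Its AMH / control log2 ratios were 1.04 (0.37 to 1.73) for Id2 and 0.97 (0.69 to 1.25) for Id3. There 1.07% of genes were at least 2-fold higher. A cluster led by Amh, Wfdc10 and Kctd14 had 565 CPM of Amhr2, but 78 of its 79 cells were from doxorubicin, so no AMH ratio can be given.

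Over 28 clusters with a value, the log2 AMH / control ratio of Id2 and log2(Amhr2 CPM + 5) in control had a Pearson correlation of 0.60 and a Spearman correlation of 0.43. For doxorubicin+AMH / doxorubicin, with Amhr2 taken from doxorubicin, they were 0.59 and 0.48 over 23 clusters. The Pearson correlations were 0.23 and 0.63 for Id1 and 0.42 and 0.49 for Id3. The Spearman correlations were lower, at 0.10 and 0.41 for Id1 and 0.27 and 0.32 for Id3. These are descriptions: the clusters share the same libraries and differ in depth, and the measure was chosen after the cluster values were seen. The median Id2 ratio was 1.85 in the 4 clusters with at least 100 CPM of Amhr2 in control and 0.25 in the 18 clusters under 20 CPM. In doxorubicin+AMH / doxorubicin the medians were 0.84 in 5 clusters and 0.16 in 13. The sets of clusters differ between the contrasts, so the sizes of the gaps are not compared. The cluster led by Mctp1, Fst and Fshr had 99.8 CPM of Amhr2 in control, just under the cut, and 113 CPM in doxorubicin. Its Id2 ratios were 0.77 and 0.61, and only the 5 clusters of doxorubicin+AMH / doxorubicin include it.

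Amhr2 level alone did not order the ratios. The Kcnq5 and Bmpr1b cluster had 104, 102, 97.9 and 107 CPM of Amhr2 and an Id2 ratio of 0.38, while the evenly filled theca-like cluster led by Cyp17a1 and Lhcgr had 18.1, 27.2, 23.1 and 31.3 CPM and an Id2 ratio of 1.56.

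**Figure D4:**
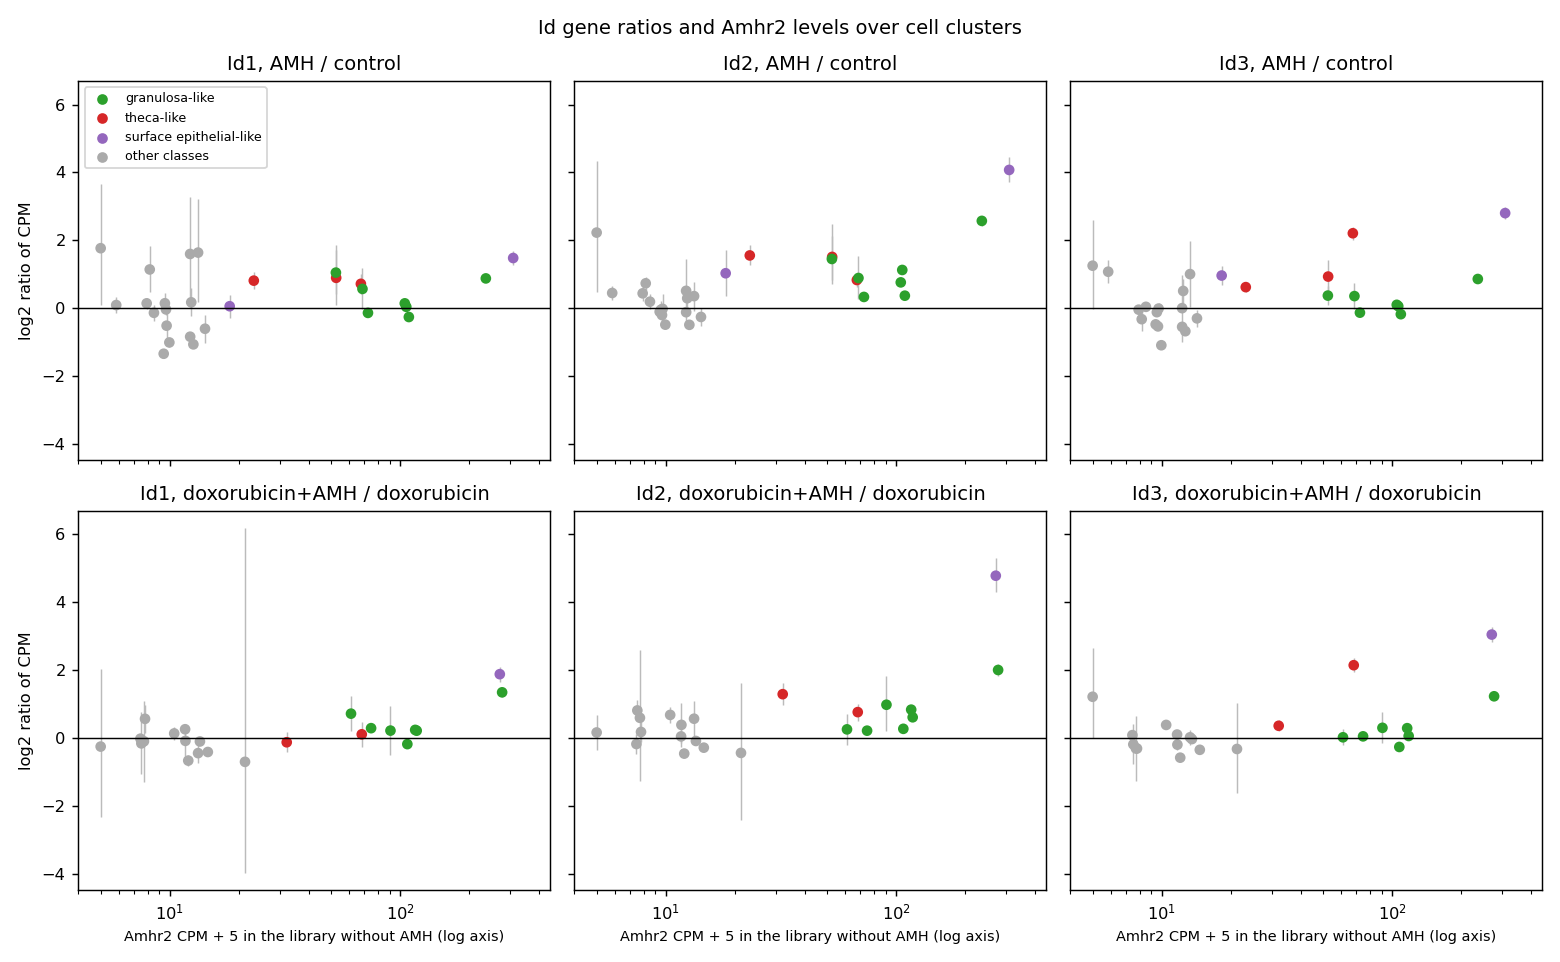
Log2 ratio of CPM (vertical) against Amhr2 CPM + 5 in the library without AMH (horizontal, log axis) for Id1, Id2 and Id3, in AMH / control (top) and doxorubicin+AMH / doxorubicin (bottom). Each point is a cluster with at least 20 cells in both libraries and a mean of at least 20 CPM, and bars are exact 95% intervals; the points with the most Amhr2 have the highest Id2 ratios.

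Other genes of the pathway were taken from lists that were chosen with earlier results of these data known. Among 6 feedback genes, whose products restrain BMP signalling, 4 passed the filter in theca-like cells, Smad7 through its libraries with AMH alone, so no count or median over the 4 is given. At least 2-fold higher were 2.67% and 2.75% of all genes of the class in the 2 AMH contrasts. Smad7, which encodes an inhibitory SMAD, was at 14.9, 13.3, 52.6 and 58.0 CPM, with log2 ratios of 1.958 and 1.98. Bambi, which encodes a decoy receptor, was at 30.1, 30.0, 76.3 and 79.2 CPM, with 1.40 and 1.35.

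Smad6, the inhibitory SMAD most tied to BMP signals, was at 2.23, 2.02, 22.1 and 25.7 CPM in theca-like cells, from 58, 39, 357 and 463 UMIs. Its log2 ratios were 3.53 (3.13 to 3.95) and 3.46 (2.98 to 3.97), although its mean is under 20 CPM. Smad9, which encodes SMAD8, had 5, 4, 58 and 101 UMIs there, or 0.192, 0.207, 3.59 and 5.60 CPM. In the Cyp17a1, Cyp11a1 and Mgarp cluster alone, Smad7 was at 14.8, 13.0, 24.3 and 31.7 CPM.

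Of the same 6 feedback genes, 4 passed the filter among granulosa-like cells, with 2 of 4 above 0 in each AMH contrast, 1 at least 2-fold higher in AMH / control and none in the other, beside 0.136% and 0.121% of all genes of the class. The medians of the 4 were 0.29 and 0.28, against -0.06 and -0.04 over all genes. Smurf1 and Smurf2, which encode ubiquitin ligases of the pathway, were the 2 below 0, at -0.06 and -0.10 in AMH / control. Granulosa-like cells had Smad6 at 31.3, 34.8, 64.7 and 97.2 CPM, with log2 ratios of 1.64 and 0.89, and Smad7 at 89.1, 92.8, 145 and 139.8 CPM, with 0.65 and 0.64. In the Cntn4 cluster, where only the libraries with AMH were above 20 CPM, Smad6 was at 13.1, 13.1, 132 and 165 CPM, and in the Lgals7 cluster it was at 17.3, 23.3, 106 and 139 CPM. Stroma-like cells had Smad6 at 8.67, 7.54, 9.46 and 11.6 CPM, and blood endothelial-like cells at 14.0, 17.1, 9.87 and 13.3 CPM.

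Of 12 receptor and SMAD genes, 9 passed the filter among granulosa-like cells, where none was past 2-fold in either AMH contrast, beside 0.679% and 0.799% of all genes. Among theca-like cells 8 passed and again none was past 2-fold, beside 6.44% and 6.45% of all genes. Of 13 ligands and antagonists, 5 passed in the first class and 3 in the second. Amh itself, made by granulosa cells, was at 138, 198, 70.3 and 43.4 CPM in granulosa-like cells, lower with AMH at -1.67 (-1.72 to -1.61) and -1.49 (-1.54 to -1.44). Amh was among the top 10 genes of clusters that the libraries filled unequally. The Cntn4 cluster held 317, 242, 125 and 209 cells, and the cluster led by Amh held 78 of its 79 cells from doxorubicin. Within the Cntn4 cluster Amh was at 229, 289, 109 and 83.9 CPM, and within the cluster led by Mctp1, Inhba and Inhbb at 218, 306, 99.9 and 59.7 CPM, lower with AMH in both. In the cluster led by Spef2, Mctp1 and Unc5c it was at 69.8, 61.6, 155 and 75.3 CPM, which is not lower with AMH. Bmp6, a BMP ligand, was at 103, 80.3, 11.8 and 10.98 CPM in theca-like cells, with -3.24 and -2.76, and Nbl1, a BMP antagonist, at 18.3, 16.4, 37.2 and 41.5 CPM, with 1.18 and 1.18. Both passed the filter only through the libraries in which they were high.

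Of 9 helix-loop-helix partner and relative genes, 5 passed in theca-like cells. The E protein genes Tcf3, Tcf4 and Tcf12 differed by no more than 0.15 on the log2 scale in either AMH contrast in these cells, at 31.6, 29.5, 32.8 and 31.1 CPM for Tcf3. Hes1, another repressor of this structural family, was at 157, 178, 270.2 and 335 CPM, with 1.09 and 0.60.

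A list of 18 genes that tissue dissociation induces was the check on handling. In theca-like cells 18 of 18 were above 0 in AMH / control and 14 of 18 in doxorubicin+AMH / doxorubicin, with medians of 0.53 and 0.30. Among them Atf3 was at 132, 146, 292 and 329 CPM and Ier3 at 74.9, 77.6, 175 and 162 CPM. Id genes are also early response genes, and the part of dissociation in their theca-like values was not tested. In the Cyp17a1, Cyp11a1 and Mgarp cluster the medians were 0.19 and 0.09, where Id3 ratios were 2.21 and 2.14. In the cluster led by Lhcgr, Prss35 and Dpp6 the AMH / control median was 0.80, with 15 of 18 genes above 0, where Id1, Id2 and Id3 ratios were 0.90, 1.52 and 0.94. In the Lgals7 cluster the list was lower with AMH, at -0.70 and -0.32, with the Id genes higher.

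The genes most like each member were ranked by Pearson correlation of log2(CPM + 5) over 36 sums of a class in a library with at least 50 cells, among 7097 genes. The sums share 4 libraries and 11 classes are represented unevenly, so these are descriptions. For Id1 they were Tjp1 (0.92), Prkd1, Ptk2, Wwtr1 and Arhgap29; for Id2, Rap2c (0.82), Vamp4, Tbc1d1, Nsa2 and Eif3k; for Id3, Fkbp10 (0.91), Srgap1, Serpinh1, Nrep and Ddah2; and for Id4, which itself had a mean under 20 CPM, Kcnd3 (0.88), Synpo2, Ctxn1, Mylk and Pde3a. Among the members, Id1 and Id3 had the highest correlation, 0.86, and Id1 and Id2 the lowest, 0.20.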

How the data were processed

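The authors deposited 1 matrix of raw UMI counts for each library, which the software Cell Ranger 7.0.0 wrote, per the file headers. The submitters' processing notes name mm10, R 4.2.0 and Seurat 4.1.0, with no role. Whether intronic reads were counted is not given in the sources used here. The chemistry reads 3′ transcript ends, per the labels' protocols.

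Cells under 1000 UMIs or above 20% mitochondrial UMIs were left out. Scrublet scores (scanpy 1.11.5) were used to remove the top 0.8% per 1000 deposited cells, or 632, 366, 437 and 648 cells, which left 7956, 6040, 6546 and 7898. All libraries entered 1 clustering, uncorrected for batch, over 2000 variable genes chosen after leaving out the Id genes, the gene lists and mitochondrial genes, with 30 principal components (scikit-learn 1.9.0), 20 neighbours and Leiden resolution 1.0 (leidenalg 0.10.2). A cluster took a class name when at least 3 markers and 50% of its list exceeded the median cluster by 1 or more on the log2 scale and were seen in 10% of its cells; of several such classes, the one with the most markers among the cluster's top 10 genes was taken. The granulosa-like clusters led by Kcnq5 and by Cntn4 had none of the 7 markers among their top 10 genes. These thresholds were set after values were seen, so a difference from the study may come from rebuilt names.

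UMIs were summed per class and library as CPM. Ratios use no pseudocount, and counts below 3 are set to 3. A pair counts as past 2-fold with a mean of at least 20 CPM. With 1 library per group no test was run. Intervals are exact (scipy 1.17.1) and cover counting error only. The ratio code was tested on simulated counts. The members and lists were chosen with earlier results of these data known. Named pathway genes were those past 2-fold in the same direction in both AMH contrasts in granulosa-like or theca-like cells, at most 8 per class, plus Smad6, Smad7, Smad9 and Bambi; Amhr2, the E protein genes and Hes1 were named after their values were seen. Gene positions are from GENCODE on GRCm38, and promoter windows from RefSeq, which matched 3 of 4 members; Id1 is named only.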

Additional observations from a re-analysis of the deposited data

Results flagged for a closer look

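The AMH ratios of Id1, Id2 and Id3 had opposite signs in theca-like and mural smooth muscle-like cells, higher with AMH in the first and lower in the second, in both contrasts, as sums over each class. The theca-like log2 ratio minus the mural smooth muscle-like one was 2.66 for Id1, 1.93 for Id2 and 3.60 for Id3 in AMH / control. In doxorubicin+AMH / doxorubicin it was 1.74 for Id1, 1.87 for Id2 and 3.15 for Id3. The theca-like sums join 3 unequally filled clusters, and for Id1 in doxorubicin+AMH / doxorubicin the ratios within 2 of them were 0.11 (-0.26 to 0.46) and -0.12 (-0.41 to 0.17). With 1 library per group the difference was not tested.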

How the results depend on the processing

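All 8 ratios past 2-fold kept their sign under the alternatives that gave a value, and 5 of them, which are Id1, Id2 and Id3 in theca-like cells in AMH / control and Id2 and Id3 there in doxorubicin+AMH / doxorubicin, stayed past 2-fold in all 12. These are all sums over classes: within theca-like clusters, Id1 was past 2-fold in 0 of 3 in AMH / control. The other 3 did not: Id1 in theca-like cells was 0.91 in doxorubicin+AMH / doxorubicin with a per-cell marker gate, Id1 in blood endothelial-like cells was -0.96 in AMH / control with each cell weighted equally, and Id1 in macrophage-like cells ranged from 0.84 with doublets left in to 2.42 with the marker gate. Of all 76 ratios, 54 kept their sign throughout. Gained calls in the AMH contrasts were Id1 in mural smooth muscle-like cells in AMH / control, at -1.04 at Leiden resolution 2.0 and -1.005 with each library clustered alone, Id2 in granulosa-like cells there, at 1.00 with doublets left in, Id4 in those cells, at 1.04 with no filter on mean CPM, and Id1 in macrophage-like cells in doxorubicin+AMH / doxorubicin, at -1.02 with the marker gate. Id1 in blood endothelial-like cells in doxorubicin+AMH / AMH fell from 0.99 to 0.35 with that gate. Pairs past 2-fold in doxorubicin / control went from 0 to 1 at Leiden resolution 2.0 and to 1 with no filter on mean CPM. In doxorubicin+AMH / AMH they went from 0 to 1 with at most 10% mitochondrial UMIs, to 1 at Leiden resolution 2.0 and to 2 with the marker gate. The cause was not tested. Leaving out granulosa-like clusters held by 1 library was added after seeing the data and changed no call. No paired analysis was possible because each group is 1 library. Few UMIs limit Id4 and Smad9, and few cells the small classes.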
